A study of Mus musculus with 12 samples.

Results

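The subject of this report is the amino acid and related transporters of epididymal white adipose tissue (eWAT), taken as every gene of the solute carrier families Slc1, Slc3, Slc6, Slc7, Slc36, Slc38, and Slc43 that had its own row on the array. Within these families the choice was made by gene symbol and not by any measured value, and it gave 60 of the 14860 genes tested. The families themselves were chosen with earlier results of these data known. One of them, Slc7a6os, shares a name with its neighbour Slc7a6 but encodes no transporter. Slc1a2 lay on a row with several symbols and was not analysed here.

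RNA came from male C57BL/6J mice that were 7 to 8 weeks old when bought and were housed at 22°C before grouping. There were 4 groups, each with 3 Affymetrix Mouse Exon 1.0 ST arrays: 30°C, the thermoneutral control, to which mice were moved directly, and 4°C, then –10°C, and then –10°C/–20°C, which all cold groups entered through 18°C and then 4°C. The –10°C mice spent their last 3 weeks at that temperature, and the –10°C/–20°C mice spent theirs at –20°C by day and –10°C by night, within an exposure that the labels count as 5 weeks from the start at 4°C. The labels present the arrays of a group as biological replicates but tie none of them to a mouse, a litter, or a day of hybridization, and p-values therefore reflect only how far these arrays differ from each other.

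Cells take up amino acids through families of carriers that differ in what they move and in what drives the movement. Light chains of the Slc7 family work only when paired with a heavy chain, Slc3a2 (4F2hc or CD98) or Slc3a1 (rBAT), and exchange one amino acid for another, whereas Slc38 and Slc6 carriers use the sodium gradient and Slc36 carriers use protons. In adipose tissue such carriers feed glutamine and branched-chain amino acid use, and Slc7a10 and Slc36a2 are known as surface proteins of white adipocytes and of brown and beige adipocytes.

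Levels are log2 intensities, and 4.52, the level below which 95% of the 718 olfactory receptor genes on the array had their mean, served as background. A total of 40 of the 60 members had at least 1 group mean above it, against 72.1% of all genes. The 20 that did not were Slc1a6, Slc1a7, Slc3a1, Slc6a2, Slc6a5, Slc6a14, Slc6a15, Slc6a18, Slc6a19, Slc6a20b, Slc7a3, Slc7a4, Slc7a11, Slc7a12, Slc7a13, Slc7a14, Slc7a15, Slc36a3, Slc38a8, and Slc38a11. Among them are the heavy chain of kidney and gut, the cystine-glutamate exchanger xCT (Slc7a11, between 2.38 and 2.78 on the 12 arrays), and the norepinephrine transporter (Slc6a2, between 3.89 and 4.36). For arrays, the number of arrays and the signal over background limit the precision.

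Marker genes moved with temperature in the same RNA, and their part in the results was not tested. Adipocyte markers had a summed log2 level between 14.35 and 14.66 on all arrays, a sum carried by the brightest of them. With –10°C/–20°C 1 of the 7 was higher and 1 was lower. The lower one was Lep, the leptin gene, which read 4.81, 3.94, and 4.16 with –10°C/–20°C, against 11.02, 10.15, and 11.16 with 30°C. Macrophage markers summed to 12.65 to 12.78 at 30°C, 12.26 to 12.31 with 4°C, 11.77 to 11.98 with –10°C, and 11.51 to 11.67 with –10°C/–20°C, and 7 of 8 were lower with –10°C/–20°C than at 30°C. Brown fat markers summed to 6.62 to 6.89, 7.88 to 8.68, 9.44 to 9.95, and 10.12 to 10.81 in the same order of groups, and all 5 were higher with –10°C/–20°C than at 30°C. Elovl3 differed most (6.18, SE 0.73, adjusted p = 0.00022), whereas Ucp1, the uncoupling protein that defines brown fat, exceeded background on 1 array alone (4.85, with –10°C/–20°C). Stromal progenitor markers were lower in 3 of 7, lymphocyte markers in 2 of 6, and mesothelial markers in 1 of 5. Endothelial markers had 1 of 7 higher and 1 lower, and of 7 epididymis and testis, 4 nerve, and 3 muscle markers none passed by limma. In whole tissue, fewer cells of a type and less RNA per cell cannot be told apart.

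With –10°C/–20°C over 30°C, 14 members passed the test, 7 higher and 7 lower, which is 23.3% of the members against 18.2% of all genes (7.19% higher and 11% lower). With –10°C, 8 passed, 2 higher and 6 lower, or 13.3% against 8.34% (5.3% higher and 3.03% lower), and with 4°C, 4 passed, 2 in each direction, or 6.67% against 3.04% (2.1% higher and 0.942% lower). The median log2 difference of the members was -0.02 at 4°C, -0.03 at –10°C, and -0.01 at –10°C/–20°C, where all genes had 0.01, 0.03, and -0.03. These medians include the 20 members that were not above background. Calls ran in both directions at each temperature. Between the cold groups, 9 members differed with –10°C/–20°C relative to –10°C (7 higher and 2 lower, against 7.16% of genes, 2.02% higher and 5.14% lower), 10 relative to 4°C (5 higher and 5 lower, against 9.77%, 2.53% higher and 7.24% lower), and 0 with –10°C relative to 4°C by limma, where 6 of 14860 genes, or 0.0404% (0.00673% higher and 0.0336% lower), passed. In that last comparison 7 members had an unadjusted p under 0.05, and the methods' t-test with adjustment also called 0.

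**Figure D1:**
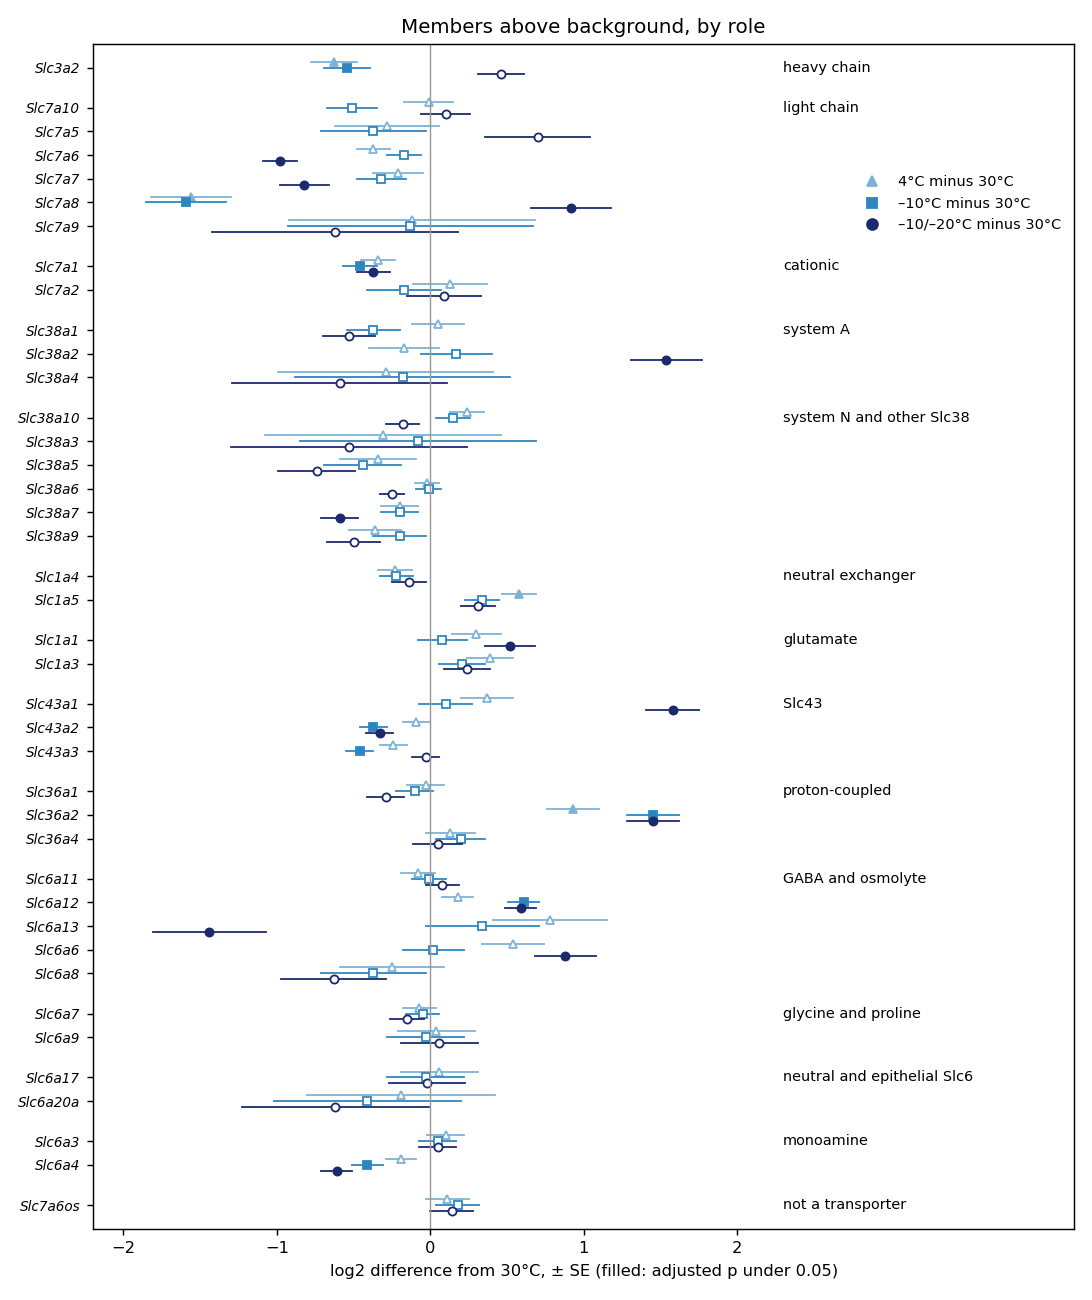
Log2 difference from 30°C (x axis, ± SE) of the 40 members above background, grouped by role (y axis), with 4°C as triangles, –10°C as squares, and –10°C/–20°C as circles, and filled marks for adjusted p under 0.05. Filled circles lie on both sides of 0, with Slc43a1 at 1.58 and Slc6a13 at -1.44 at the ends, whereas filled triangles belong only to Slc3a2, Slc7a8, Slc1a5, and Slc36a2.

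The promoters of members with large changes, and of Slc7a11 as a case with no signal, are shown first, since members that move together may or may not share letters there. Each is the window from 250 bases before to 50 bases after a start site in RefSeq, build GRCm38.p6, printed 5′ to 3′ on the strand of the gene. Capitals mark matches to 3 motifs that were searched on both strands: TGATGNAA, the C/EBP-ATF element through which amino acid shortage acts on genes, TGACGTC, the core of the cyclic AMP response element, and CACGTG, the E-box read by Myc and by the lysosomal factor Tfeb.
Slc3a2 (chr19:8713848-8714147, minus strand): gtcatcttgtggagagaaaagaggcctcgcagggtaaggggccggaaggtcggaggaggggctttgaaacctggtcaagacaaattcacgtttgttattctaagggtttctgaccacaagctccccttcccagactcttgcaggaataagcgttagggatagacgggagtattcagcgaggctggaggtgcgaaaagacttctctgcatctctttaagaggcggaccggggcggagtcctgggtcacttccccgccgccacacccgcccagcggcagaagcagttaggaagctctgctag
Slc7a8 (chr14:54781837-54782136, minus strand): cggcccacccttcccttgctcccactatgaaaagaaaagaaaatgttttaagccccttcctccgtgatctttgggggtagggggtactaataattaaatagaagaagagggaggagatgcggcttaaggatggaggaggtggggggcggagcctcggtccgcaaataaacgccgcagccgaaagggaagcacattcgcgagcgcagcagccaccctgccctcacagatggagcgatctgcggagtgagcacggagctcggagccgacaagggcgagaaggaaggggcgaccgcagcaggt
Slc38a2 (chr15:96699679-96699978, minus strand): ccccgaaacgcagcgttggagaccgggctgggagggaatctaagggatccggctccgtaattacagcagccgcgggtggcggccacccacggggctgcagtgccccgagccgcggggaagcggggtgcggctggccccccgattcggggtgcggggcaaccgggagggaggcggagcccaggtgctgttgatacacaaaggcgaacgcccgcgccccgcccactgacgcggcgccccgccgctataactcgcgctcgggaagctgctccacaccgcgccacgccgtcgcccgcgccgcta
Slc43a1 (chr2:84840073-84840372, plus strand): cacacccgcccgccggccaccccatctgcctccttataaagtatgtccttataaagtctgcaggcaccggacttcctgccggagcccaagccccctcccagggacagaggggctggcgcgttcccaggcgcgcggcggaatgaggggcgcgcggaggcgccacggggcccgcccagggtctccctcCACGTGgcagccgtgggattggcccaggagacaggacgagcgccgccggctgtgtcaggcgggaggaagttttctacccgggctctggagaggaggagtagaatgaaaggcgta
Slc7a11 (chr3:50443564-50443863, minus strand): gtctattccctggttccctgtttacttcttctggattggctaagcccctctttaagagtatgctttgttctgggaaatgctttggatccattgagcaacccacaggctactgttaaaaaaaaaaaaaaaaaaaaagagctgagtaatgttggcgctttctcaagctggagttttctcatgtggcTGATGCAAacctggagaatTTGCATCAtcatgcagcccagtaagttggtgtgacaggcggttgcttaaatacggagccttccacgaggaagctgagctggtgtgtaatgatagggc

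The windows of Slc3a2, Slc7a8, and Slc38a2, which were all highest with –10°C/–20°C, held 0 matches to these motifs. Only these 300 bases were searched, so an element farther upstream or within an intron would be missed. Slc43a1 held 1 E-box, 64 bases before its start, and Slc7a11 held 2 C/EBP-ATF matches, on opposite strands, 66 and 47 bases before its start. Over all 32851 windows of the table, 3.97% held TGATGNAA, 3.21% TGACGTC, and 7.15% CACGTG. A window was found for 43 of the 60 members. Some had several, and of their 64 windows 4 held TGATGNAA, 2 TGACGTC, and 8 CACGTG. Among these, TGATGNAA also occurred in Slc1a4 and Slc7a7, TGACGTC in Slc38a6 and Slc1a3, and CACGTG in Slc38a7 and 6 more members beside Slc43a1. Such matches describe letters in these windows and not binding.

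The heavy chain Slc3a2 did not follow temperature in 1 direction. Its level was 10.22, 10.29, and 10.11 at 30°C, 9.52, 9.78, and 9.43 with 4°C, 9.55, 10, and 9.44 with –10°C, and 10.68, 10.79, and 10.53 with –10°C/–20°C. The 4°C and –10°C arrays all lay below those of 30°C, and the –10°C/–20°C arrays all lay above them. Slc3a2 was 2.01-fold higher with –10°C/–20°C than with –10°C (log2 difference 1.0, SE 0.15, adjusted p = 0.0034) and 2.13-fold higher than with 4°C (1.09, SE 0.15, adjusted p = 0.0014). It was lower with 4°C (-0.63, SE 0.15, adjusted p = 0.045) and with –10°C (-0.54, SE 0.15, adjusted p = 0.044) than with 30°C. These 2 decreases kept their direction under every alternative run, between -0.73 and -0.56 and between -0.71 and -0.39, but both were no longer called without any 1 of the 30°C arrays, 4°C array 1, –10°C array 1, or any 1 of the –10°C/–20°C arrays, and in addition without 4°C array 3 for the 4°C decrease and without –10°C array 3 for the –10°C decrease. The difference between –10°C/–20°C and 30°C was 0.46 (SE 0.15, adjusted p = 0.052).

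Slc7a8 (LAT2), a light chain that exchanges large and small neutral amino acids, was, like the heavy chain, lower with 4°C and –10°C than at 30°C and had its highest mean with –10°C/–20°C, and its differences were the largest of any member. It read 9.88, 9.0, and 9.20 at 30°C, 7.77, 8.01, and 7.64 with 4°C, 7.75, 7.83, and 7.72 with –10°C, and 9.80, 10.82, and 10.23 with –10°C/–20°C. The 6 arrays of 4°C and –10°C stood apart below all others, whereas the –10°C/–20°C and 30°C arrays overlapped. Slc7a8 fell with 4°C (-1.56, SE 0.26, 2.94-fold lower, adjusted p = 0.010) and with –10°C (-1.59, SE 0.26, 3.01-fold lower, adjusted p = 0.004), both relative to 30°C. Relative to the other cold groups it was 5.71-fold higher with –10°C/–20°C than with –10°C (2.51, SE 0.26, adjusted p = 0.00053) and 5.57-fold higher than with 4°C (2.48, SE 0.26, adjusted p = 0.00061). Between –10°C and 4°C the difference was -0.04 (SE 0.26, adjusted p = 1.0). The increase with –10°C/–20°C over 30°C was 0.92 (SE 0.26, adjusted p = 0.029) and ranged from 0.65 to 1.18 over the alternatives, with the call lost without 30°C array 2 or 3 or –10°C/–20°C array 2 or 3, with only the arrays of the 2 groups, and when the name form (array names in the study's supplementary table take 2 forms) was fitted as a block. Without 4°C array 1 the decrease with 4°C was no longer called, within a range of -1.84 to -1.30.

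Slc7a5 (LAT1), the exchanger of leucine and other large neutral amino acids, had the same order of means as Slc7a8 without passing any comparison. Its arrays read 6.59, 7.18, and 6.52 at 30°C, 6.21, 6.96, and 6.28 with 4°C, 6.03, 6.51, and 6.64 with –10°C, and 6.64, 7.79, and 7.96 with –10°C/–20°C. One –10°C/–20°C array lay within the range of 30°C and the other two lay above it. The difference was 0.70 (SE 0.34, adjusted p = 0.21) with –10°C/–20°C over 30°C and 1.06 (SE 0.34, adjusted p = 0.09) relative to –10°C. Slc7a10 (Asc-1), which exchanges small neutral amino acids, was near its 30°C mean of 9.53 ± 0.12 with 4°C (9.52 ± 0.31) and with –10°C/–20°C (9.62 ± 0.21) and had its lowest mean with –10°C (9.02 ± 0.15, SD, n = 3 each). It read 9.47, 9.54, and 9.86 with –10°C/–20°C, against 8.96, 8.91, and 9.2 with –10°C, with no overlap. Its level with –10°C/–20°C exceeded that with –10°C (0.60, SE 0.16, adjusted p = 0.048), a call that was lost in 15 of 24 alternatives, among them without any 1 of the arrays of 30°C, –10°C, or –10°C/–20°C and without 4°C array 2, with a range of 0.48 to 0.69.

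The remaining measured partners of Slc3a2, the y+L exchangers of cationic for neutral amino acids, were lowest where Slc3a2 was highest. Slc7a6 (y+LAT2) read 7.34, 7.22, and 7.46 at 30°C, 6.95, 7.03, and 6.92 with 4°C, 7.40, 6.97, and 7.15 with –10°C, and 6.41, 6.40, and 6.25 with –10°C/–20°C. All 3 arrays of the coldest group lay below the other 9. Slc7a6 was 1.98-fold lower with –10°C/–20°C than at 30°C (-0.98, SE 0.11, adjusted p = 0.00019), a call that held under all 24 alternatives, and it was also lower than with –10°C (-0.82, SE 0.11, adjusted p = 0.0025) and with 4°C (-0.61, SE 0.11, adjusted p = 0.0068). Slc7a7 (y+LAT1), which macrophages are known to carry, read 5.70, 5.65, and 5.52 at 30°C and 4.65, 4.8, and 4.98 with –10°C/–20°C, and its means with 4°C (5.42 ± 0.31) and –10°C (5.30 ± 0.18, SD, n = 3 each) lay between. Its level with –10°C/–20°C fell by 0.82 on the log2 scale against the 30°C arrays (SE 0.16, adjusted p = 0.0037). The macrophage markers, whose summed level was 11.51 to 11.67 with –10°C/–20°C and 12.65 to 12.78 with 30°C, were lower in the same arrays. Whether macrophages had a part in the fall of Slc7a7 was not tested. Slc7a11 was not above background on any array, so that of the 6 light chains of Slc3a2 listed here 5 were measured above it.

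**Figure D2:**
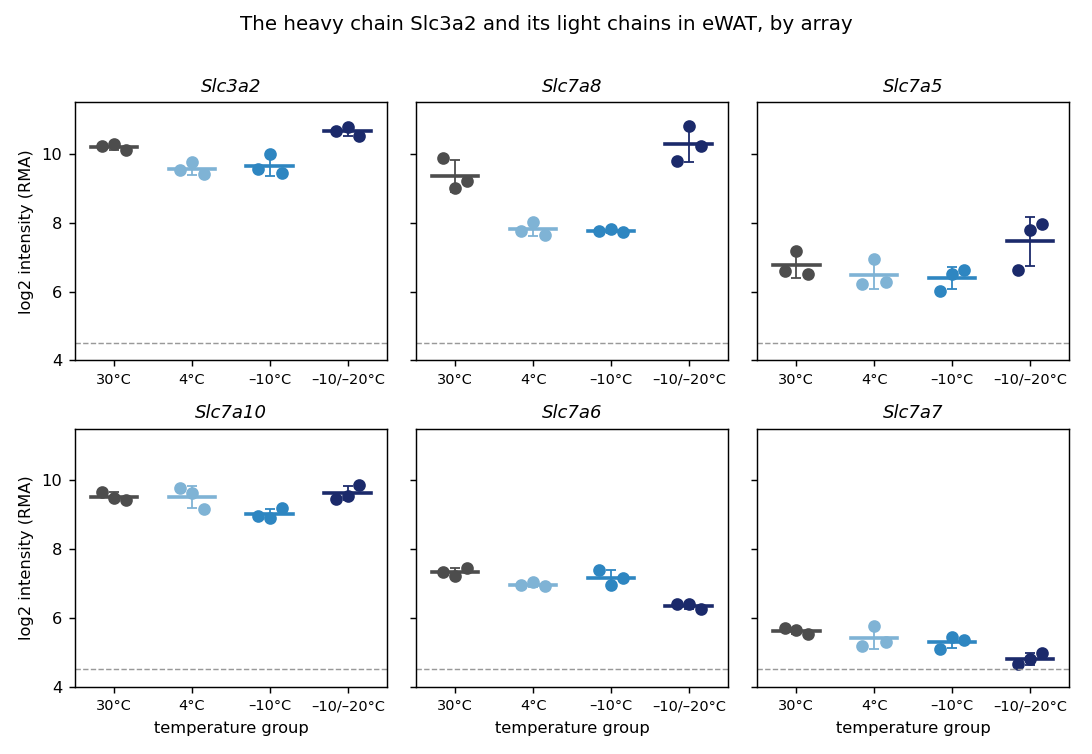
Log2 intensity (y axis) of the heavy chain Slc3a2 and 5 of its light chains in each temperature group (x axis), with points for arrays, thick lines for means, bars for the SD, and a dashed line at the background of 4.52. Slc3a2 and Slc7a8 dip with 4°C and –10°C and are highest with –10°C/–20°C, and Slc7a6 and Slc7a7 are lowest there.

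Of the sodium-coupled system A carriers, Slc38a2 (SNAT2), known to be induced when amino acids are short, changed only with –10°C/–20°C. It read 8.98, 9.06, and 9.17 at 30°C, 8.94, 8.94, and 8.81 with 4°C, 9.18, 9.85, and 8.68 with –10°C, and 10.43, 10.88, and 10.53 with –10°C/–20°C. The coldest group did not overlap any other, and the –10°C arrays spread over more than 1 log2 unit. Slc38a2 rose 2.91-fold with –10°C/–20°C over 30°C (1.54, SE 0.23, adjusted p = 0.00091) and differed from –10°C by 1.37 (SE 0.23, adjusted p = 0.0066) and from 4°C by 1.72 (SE 0.23, adjusted p = 0.0015). The differences from 30°C and 4°C ranged from 1.41 to 1.63 and from 1.58 to 1.81 over the alternatives. Slc38a2 lost these calls only within the 8 arrays of 1 name form, where 30°C and 4°C have 1 array each. Its paralog Slc38a1 (SNAT1) was at 6.59 ± 0.12 with –10°C/–20°C and 7.12 ± 0.13 with 30°C (SD, n = 3 each), a difference that missed the threshold (-0.53, SE 0.17, adjusted p = 0.055). Slc38a4 (SNAT4) varied so much within groups, between 4.14 and 7.0 with 4°C alone, that no difference could be detected (SE 0.70).

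In the rest of the Slc38 family the values that passed were decreases. Slc38a7, a lysosomal glutamine and asparagine carrier, read 7.30, 7.10, and 7.06 with –10°C/–20°C, against 7.92, 7.52, and 7.80 with 30°C (-0.59, SE 0.12, adjusted p = 0.0045). Slc38a10 was lower with –10°C/–20°C (8.14, 7.88, and 8.01) than with 4°C (8.42, 8.41, and 8.46), by -0.42 (SE 0.11, adjusted p = 0.031), and did not pass against 30°C. That call was lost under 11 of 24 alternatives, among them without any 1 of the 4°C arrays or –10°C/–20°C array 2 or 3, with a range of -0.52 to -0.34. Slc38a9, the lysosomal arginine sensor, averaged 7.83 ± 0.31 with –10°C/–20°C and 8.33 ± 0.09 with 30°C (adjusted p = 0.067). Slc38a3, Slc38a5, and Slc38a6 passed no comparison.

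Slc43 members are facilitative carriers that need no partner, and the 3 of them took different courses. Slc43a1 (LAT3), which moves branched-chain amino acids and phenylalanine, read 9.06, 8.98, and 9.16 at 30°C, 9.47, 9.45, and 9.37 with 4°C, 8.90, 9.63, and 8.95 with –10°C, and 10.42, 10.79, and 10.74 with –10°C/–20°C. Its coldest arrays lay above all others. It was 3-fold higher with –10°C/–20°C than at 30°C (1.58, SE 0.17, adjusted p = 0.00014), a call that held under all 24 alternatives, 2.8-fold higher than with –10°C (1.48, SE 0.17, adjusted p = 0.001), and 2.33-fold higher than with 4°C (1.22, SE 0.17, adjusted p = 0.0018). Slc43a2 (LAT4), with a like substrate range, moved the other way by a smaller step, with 6.63, 6.65, and 6.76 with –10°C/–20°C, against 6.89, 7.11, and 7.03 with 30°C (-0.33, SE 0.09, adjusted p = 0.027), and it was also lower with –10°C (-0.37, SE 0.09, adjusted p = 0.029). The –10°C/–20°C call was lost without 30°C array 2 or 3 or –10°C/–20°C array 1 or 2 (range -0.39 to -0.25), and the –10°C call without 30°C array 2 or 3 or any 1 of the –10°C arrays (range -0.43 to -0.32).

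Slc43a3, a carrier of purine nucleobases, was lowest with –10°C. It read 10.83, 10.78, and 10.70 at 30°C, 10.50, 10.52, and 10.57 with 4°C, 10.17, 10.36, and 10.40 with –10°C, and 10.83, 10.73, and 10.68 with –10°C/–20°C. The –10°C arrays lay below those of every other group. Slc43a3 fell by 0.46 on the log2 scale with –10°C relative to 30°C (SE 0.09, adjusted p = 0.008), and with –10°C/–20°C it was 0.43 above –10°C (SE 0.09, adjusted p = 0.013) and differed from 30°C by -0.03 (SE 0.09). Without –10°C array 1 the difference between –10°C/–20°C and –10°C was no longer called, within a range of 0.36 to 0.51.

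Slc36a2 (PAT2), the proton-coupled carrier of small amino acids, was the member that passed against 30°C in all cold groups in the same direction. It read 8.5, 8.07, and 8.37 at 30°C, 9.41, 8.87, and 9.46 with 4°C, 9.88, 9.81, and 9.60 with –10°C, and 9.90, 9.69, and 9.71 with –10°C/–20°C. Every cold array lay above every 30°C array. The increase over 30°C was 1.91-fold with 4°C (0.93, SE 0.17, adjusted p = 0.014), 2.73-fold with –10°C (1.45, SE 0.17, adjusted p = 0.00094), and 2.74-fold with –10°C/–20°C (1.45, SE 0.17, adjusted p = 0.00017). The last held under all 24 alternatives, whereas the 4°C call was lost without 30°C array 2 or 4°C array 1 or 3, with a range of 0.81 to 1.12. Between –10°C/–20°C and –10°C the difference was 0.01 (SE 0.17), and of the 5 brown fat markers only Elovl3 passed in that comparison. Its paralogs Slc36a1 and Slc36a4 passed no comparison, with group means between 6.16 and 6.46 and between 7.28 and 7.48.

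**Figure D3:**
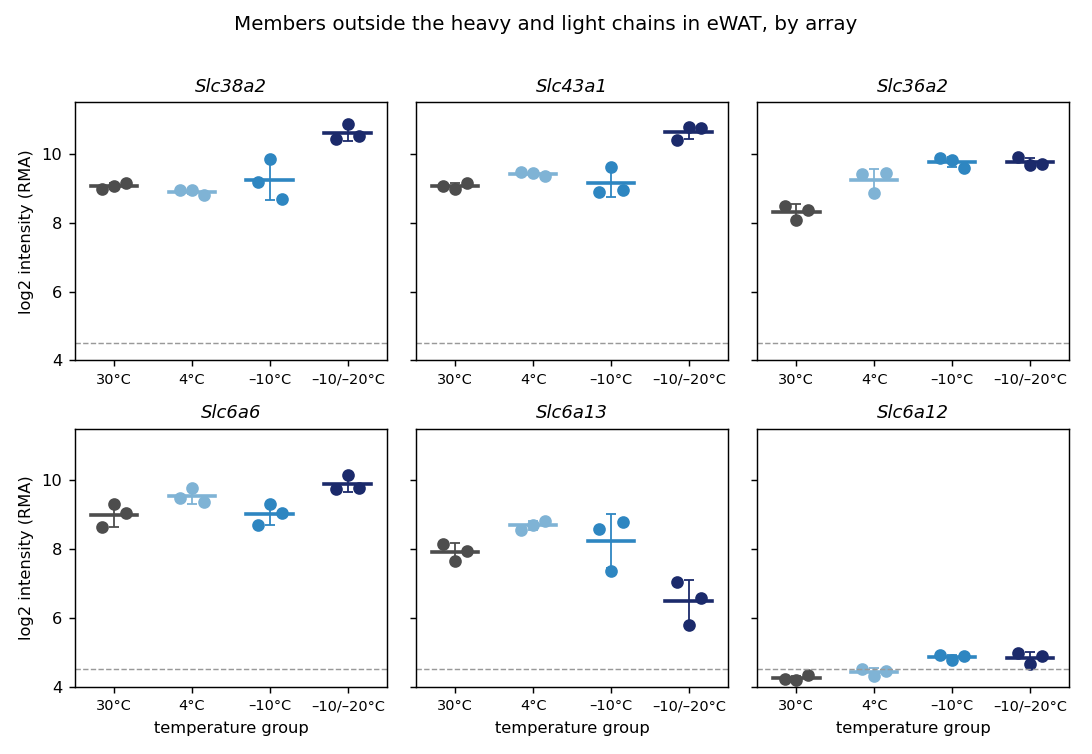
Log2 intensity (y axis) of 6 members that work without a heavy chain in each temperature group (x axis), with points for arrays, thick lines for means, bars for the SD, and a dashed line at the background of 4.52. Slc38a2 and Slc43a1 are set apart with –10°C/–20°C, Slc36a2 is higher in all cold groups, and Slc6a13 is lowest with –10°C/–20°C.

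Among Slc6 carriers of osmolytes and GABA, Slc6a6, the taurine transporter, read 8.63, 9.31, and 9.06 at 30°C, 9.48, 9.78, and 9.36 with 4°C, 8.69, 9.30, and 9.06 with –10°C, and 9.74, 10.15, and 9.77 with –10°C/–20°C. Its level with –10°C/–20°C exceeded that at 30°C (0.88, SE 0.20, adjusted p = 0.011) and that with –10°C (0.87, SE 0.20, adjusted p = 0.029), with ranges of 0.70 to 1.10 and 0.70 to 1.01 over the alternatives. Both calls were lost without –10°C/–20°C array 2, and the second also without –10°C/–20°C array 3 or –10°C array 1 or 3. With –10°C, the level was that of 30°C within the spread (0.02, SE 0.20).

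Slc6a13 (GAT-2), a carrier of GABA and taurine, read 8.15, 7.64, and 7.94 at 30°C, 8.56, 8.71, and 8.81 with 4°C, 8.59, 7.35, and 8.80 with –10°C, and 7.04, 5.8, and 6.59 with –10°C/–20°C. All coldest arrays lay below the rest, and 1 of the –10°C arrays stood well below its 2 companions. Slc6a13 was 4.65-fold lower with –10°C/–20°C than with 4°C (-2.22, SE 0.37, adjusted p = 0.0038), 3.42-fold lower than with –10°C (-1.77, SE 0.37, adjusted p = 0.016), and 2.71-fold lower than with 30°C (-1.44, SE 0.37, adjusted p = 0.019). Without –10°C/–20°C array 2, the comparisons with 30°C and with –10°C were no longer called, nor was the first of them without 30°C array 1 or 3 or the second without –10°C array 1 or 3, within ranges of -1.72 to -1.10 and -2.22 to -1.43. The call over 30°C was also lost with the name form as a block.

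Slc6a12 (BGT-1), the betaine and GABA transporter that lies next to Slc6a13 on chromosome 6, was near background. It read 4.97, 4.65, and 4.89 with –10°C/–20°C and 4.92, 4.79, and 4.88 with –10°C, against 4.22, 4.2, and 4.33 with 30°C, where no array exceeded 4.52. It was at least 1.25-fold higher with –10°C/–20°C (adjusted p = 0.0019) and at least 1.27-fold higher with –10°C (adjusted p = 0.0041) than with 30°C, the bound being the mean of the colder group over the background level. The creatine transporter Slc6a8 and the GABA transporter Slc6a11 passed no comparison.

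The 2 neutral exchangers of the Slc1 family behaved unlike each other. Slc1a5 (ASCT2), which exchanges glutamine, read 11.44 on each 30°C array, 12.10, 11.83, and 12.11 with 4°C, 11.74, 11.67, and 11.93 with –10°C, and 11.93, 11.66, and 11.66 with –10°C/–20°C. All 9 cold arrays lay above the 30°C arrays, but only the 4°C difference passed (0.58, SE 0.11, adjusted p = 0.021). That call was lost without 30°C array 1 or 2 or 4°C array 1 or 3 and after centring the arrays on their medians, with a range of 0.53 to 0.67. With –10°C the difference was 0.34 (SE 0.11, adjusted p = 0.093) and with –10°C/–20°C 0.31 (SE 0.11, adjusted p = 0.082). Slc1a4 (ASCT1) had group means between 4.99 and 5.21 and passed no comparison. Of the glutamate carriers, Slc1a1 (EAAC1) read 5.18, 5.07, and 5.4 with –10°C/–20°C, against 4.5, 4.7, and 4.87 with 30°C, a difference of 0.52 (SE 0.16, adjusted p = 0.042) that ranged from 0.35 to 0.61 and was lost under 14 of 24 alternatives, among them without any 1 of the –10°C or –10°C/–20°C arrays, 30°C array 1 or 2, or 4°C array 1. Slc1a3 (GLAST) had group means between 10.16 and 10.55 and passed none.

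Slc7a1 (CAT-1), a carrier of arginine and lysine that needs no heavy chain, read 6.70, 6.53, and 6.33 with –10°C/–20°C and 6.41, 6.52, and 6.35 with –10°C, against 6.81, 6.90, and 6.96 with 30°C. It was lower with –10°C (-0.46, SE 0.11, adjusted p = 0.028) and with –10°C/–20°C (-0.37, SE 0.11, adjusted p = 0.041), with ranges of -0.53 to -0.42 and -0.46 to -0.27. Both calls were lost without any 1 of the 30°C or –10°C arrays, and the second also without 4°C array 1 or –10°C/–20°C array 2 or 3. The –10°C/–20°C call was kept under 8 of 24 alternatives, and was also lost with quantile normalization, with centring, with only the arrays of the 2 groups, and with the name form as a block. Slc7a2 (CAT-2) passed none. Slc6a4, the serotonin transporter, declined along the temperatures, with 6.18, 6.26, and 6.40 at 30°C, 6.13, 6.17, and 5.97 with 4°C, 5.82, 5.97, and 5.81 with –10°C, and 5.53, 5.81, and 5.67 with –10°C/–20°C. It fell by 0.61 on the log2 scale with –10°C/–20°C (SE 0.10, adjusted p = 0.0017) and by 0.41 with –10°C (SE 0.10, adjusted p = 0.030), both relative to 30°C. The –10°C call was lost without 30°C array 2 or 3 or –10°C array 1 or 3, with a range of -0.53 to -0.35. The glycine and proline carriers Slc6a7 and Slc6a9, the neutral carriers Slc6a17 and Slc6a20a, and Slc6a3 passed none, and neither did Slc7a6os.

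A moderated F-test over the 4 groups called 15 members, or 25%, against 17.1% of all genes, and 4 further members passed comparisons without it: Slc1a1, Slc7a10, and Slc38a10 passed 1 each and Slc7a1 passed 2. The remaining 21 members above background passed no comparison. Among genes past the F-test, 88 of 2537, or 3.47%, were lower than 30°C with 4°C and –10°C and higher with –10°C/–20°C by their means, and Slc3a2 and Slc7a8 were the 2 members among them.

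Some members varied more within groups than between them. The pooled SD within groups was 0.15 for the median member and 0.16 for the median gene, but 1.14 for Slc7a9, 1.11 for Slc38a3, 1.0 for Slc38a4, and 0.87 for Slc6a20a, all 4 of which lay above the 99th percentile of genes (0.85). Slc7a9, the cystine exchanger of kidney and gut, read 4.90, 6.25, and 4.92 at 30°C, 4.63, 7.20, and 3.89 with 4°C, 4.03, 5.76, and 5.87 with –10°C, and 4.17, 4.45, and 5.57 with –10°C/–20°C. Slc38a3 (SNAT3), a glutamine carrier of liver and kidney, read 6.09, 6.79, and 5.59 at 30°C, 5.13, 7.44, and 4.97 with 4°C, 4.65, 6.37, and 7.22 with –10°C, and 4.74, 5.5, and 6.65 with –10°C/–20°C. Both were highest in 30°C array 2, 4°C array 2, –10°C array 3, and –10°C/–20°C array 3. These 4 arrays were the highest of their groups for 10 members, or 16.7%, and for 645 genes, or 4.34% of all.

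Markers of epithelium and ciliated cells, a list chosen after these values were seen, had the same high arrays. Epcam, an adhesion protein of epithelia, read 5.51, 7.5, and 6.03 at 30°C, 5.34, 8.26, and 4.69 with 4°C, 3.98, 7.07, and 7.26 with –10°C, and 4.59, 5.58, and 7.07 with –10°C/–20°C. Foxj1, the factor of motile cilia, was likewise highest on those 4 arrays, as were 14 of the 19 measured markers in all. The 4 arrays were those with the highest mean level of these markers in each group, so this count was partly fixed in advance. Of the 7 measured epididymis and testis markers, Lcn5, Lcn8, Defb1, and Adam7 were below background on every array, and Prm2, a protamine of sperm, was highest on the same 4 arrays (6.6, 6.79, 8.06, and 6.96). Prm1, another protamine, exceeded background on every array but was highest elsewhere with 4°C (array 3, 5.58) and with –10°C (array 2, 5.83). Tnp1, a transition protein of sperm, exceeded background on –10°C array 3 alone (5.08). The part of such cells in these values was not tested. With the mean level of the 18 markers above background as a covariate, all 45 calls were kept, and Slc7a5 passed with –10°C/–20°C over 30°C (0.83, SE 0.21, adjusted p = 0.017), over –10°C (1.2, SE 0.21, adjusted p = 0.0068), and over 4°C (1.06, SE 0.21, adjusted p = 0.0082), as did Slc3a2 over 30°C (0.49, SE 0.14, adjusted p = 0.032). Decreases gained against 30°C were those of Slc38a1 (-0.47, adjusted p = 0.027), Slc38a5 (-0.64, adjusted p = 0.017), and Slc6a8 (-0.46, adjusted p = 0.029). Against the other cold groups, the covariate also added calls for Slc1a1 (0.49) and Slc7a7 (-0.43) over –10°C, Slc36a2 (0.48) and Slc38a1 (-0.54) over 4°C, and Slc38a7 over both (-0.42 and -0.41). Slc7a5 and Slc6a8 were themselves highest on those 4 arrays. A covariate that follows these arrays narrows their spread by construction, so the added calls are not separate support. Without the array of highest epithelial level in each group, 14 of the 45 calls were kept, with fewer arrays. Both settings were chosen after seeing the data.

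**Figure D4:**
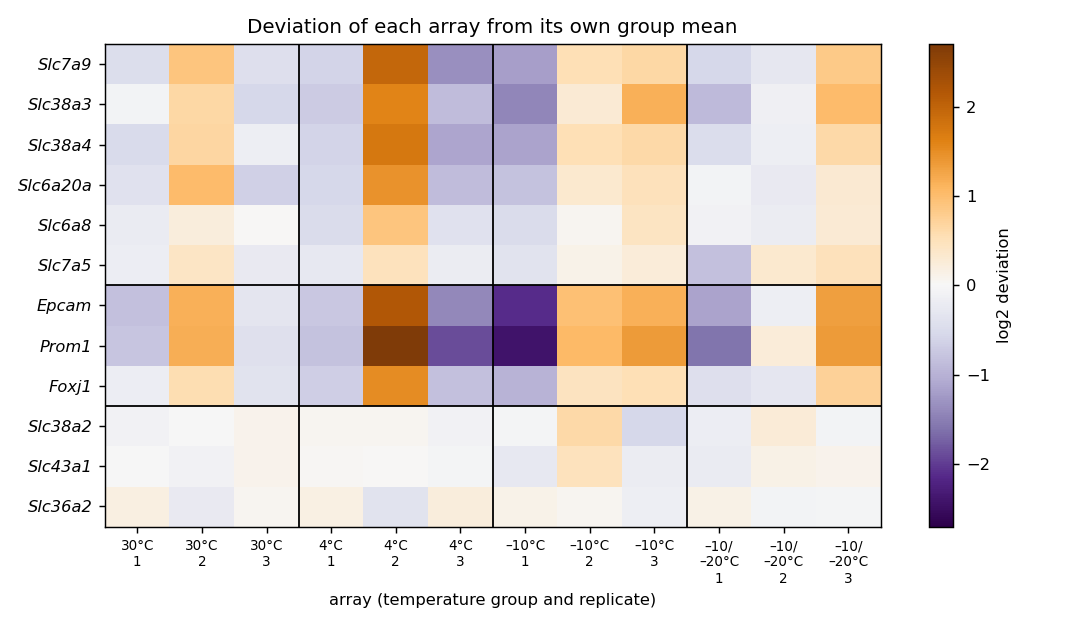
Deviation of each array from its own group mean on the log2 scale (colour) for 12 genes (y axis) on the 12 arrays (x axis, by temperature group and replicate). The 6 members at the top are variable ones that share their high arrays with the markers Epcam, Prom1, and Foxj1 in the middle. Slc7a9 and Epcam lie 1.96 and 2.16 above their group mean on 4°C array 2. Slc6a13 (pooled SD 0.52), which varied more than Slc6a8 and Slc7a5 (0.48 each), was not highest on these arrays. Slc7a15 (0.52, not above background) was, and neither is shown. At the bottom, Slc38a2 and Slc43a1 do not follow the members at the top. Slc36a2 is lowest in its group on 30°C array 2 (-0.24), 4°C array 2 (-0.38), and –10°C array 3 (-0.16).

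Array names in the study's supplementary table have 2 forms, which the sources do not explain. The table's values were found again on 1 array each for 99% to 99.8% of 500 entries, against at most 84.6% on the next best array, and this match tied 30°C arrays 1 and 2 and 4°C arrays 1 and 2 to the first form and the other 8 arrays to the second. Both the –10°C arrays and the –10°C/–20°C arrays lie wholly in the second form. With the form as a block, 9 of 14 calls were left with –10°C/–20°C over 30°C, 1 of 8 with –10°C, which was Slc36a2 (1.31, SE 0.20, adjusted p = 0.017), and 3 of 4 with 4°C, where Slc3a2 was lost. The 5 lost with –10°C/–20°C were Slc1a1, Slc43a2, Slc7a1, Slc6a13 (-1.51, SE 0.47, adjusted p = 0.075), and Slc7a8 (1.09, SE 0.32, adjusted p = 0.059). Slc7a8 then differed by -1.43 with –10°C relative to 30°C (SE 0.32, adjusted p = 0.054) and by 2.51 with –10°C/–20°C relative to –10°C (SE 0.26, adjusted p = 0.0012). Within the 8 arrays of the second form, where 30°C and 4°C have 1 array each that is assumed to vary like the others, Slc43a1 (1.49, SE 0.30, adjusted p = 0.030), Slc36a2 (1.39, SE 0.16, adjusted p = 0.0076), and Slc7a6 (-1.10, SE 0.18, adjusted p = 0.017) were still called with –10°C/–20°C over 30°C. The same held for Slc38a7 and Slc6a4, whereas the call of Slc38a2 was lost there. Within the 4 arrays of the first form, Slc7a8 differed by -1.55 with 4°C relative to 30°C (SE 0.32, adjusted p = 0.19).

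Genes that act with these transporters were read from lists chosen with earlier results of these data known. Of 22 genes of the amino acid response, 6 were higher and 3 lower with –10°C/–20°C than at 30°C (median difference 0.01, against -0.03 over all genes), where 7.19% of all genes were higher and 11% lower. Gpt2, an alanine aminotransferase, rose most (1.63, SE 0.15, adjusted p = 5.2e-05), with 10.74, 11.07, and 10.94 with –10°C/–20°C, against 9.18, 9.40, and 9.27 with 30°C. Chac1, which degrades glutathione (1.49, adjusted p = 0.00038), and Ddit4, an inhibitor of mTORC1 (1.30, adjusted p = 0.0072), followed. The RNA of Atf4, the factor that drives the response, averaged 9.27 ± 0.16 with –10°C/–20°C and 9.42 ± 0.14 with 30°C (SD, n = 3 each) and did not pass. The level and activity of its protein were not measured here. The 3 that fell were the mitochondrial folate enzymes Mthfd2 (-0.96, SE 0.18, adjusted p = 0.0037) and Shmt2 (-0.51, SE 0.13, adjusted p = 0.016), and Aldh18a1, an enzyme of proline synthesis (-0.62, SE 0.16, adjusted p = 0.019). With 4°C, 2 rose and 1 fell, against 2.1% and 0.942% of all genes, and with –10°C, 3 rose and 2 fell, against 5.3% and 3.03%.

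The counts that follow compare –10°C/–20°C with 30°C unless stated, where 7.19% of all genes were higher and 11% lower. Of 18 genes listed under amino acid sensing to mTORC1, which include Mtor itself, 0 were higher and 3 lower with –10°C/–20°C by limma. These were Sesn3 (-1.33, SE 0.11, adjusted p = 4e-05), the arginine sensor Castor1 (-0.66, SE 0.10, adjusted p = 0.0012), and Castor2 (-0.58, SE 0.16, adjusted p = 0.025). Of 8 enzymes of glutamine, glutamate, and GABA, 2 rose and 1 fell: Glul, glutamine synthetase, read 12.15, 12.26, and 12.11 with –10°C/–20°C, against 10.84, 11.45, and 11.18 with 30°C (1.02, SE 0.17, adjusted p = 0.0016), Glud1, glutamate dehydrogenase, rose by 0.92 (SE 0.20, adjusted p = 0.0072), and Got1, an aspartate aminotransferase, was lower by -1.16 (SE 0.23, adjusted p = 0.0049). Of 10 genes listed under glutathione and cystine use, Hmox1 (0.82, SE 0.24, adjusted p = 0.033) and Gclc (0.66, SE 0.21, adjusted p = 0.047) rose and none fell. Hmox1 encodes heme oxygenase, which degrades heme and uses neither glutathione nor cystine. Of 7 other amino acid and peptide transporters, Slc15a3, a lysosomal peptide carrier, fell in every cold group, by 0.51 at 4°C, 0.59 at –10°C, and 0.91 at –10°C/–20°C on the log2 scale, and the other 6 did not pass.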

How the data were processed

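The authors scanned 12 Affymetrix Mouse Exon 1.0 ST arrays of eWAT RNA and deposited log2 intensities per gene, made by RMA in Affymetrix Expression Console per the submitters' processing notes, versions not given in the sources used here. There were 23332 rows, of which 14996 carried 1 symbol, 1019 several, and 7317 none. Rows with 1 symbol were used, with the brightest row for 135 genes that had several, which left 14860 genes.

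Groups were compared with limma 3.58.1 in R 4.3.3, 1 model over all 12 arrays with moderated statistics and Benjamini-Hochberg adjustment over all genes, and an adjusted p under 0.05 was called. Tables and figures were made with Python 3.11.15, pandas 2.3.3, numpy 2.4.6, and matplotlib 3.10.9, and the fit was tested on simulated data. Members above background that passed a comparison or the F-test were given with array values, their partners and paralogs were named whether or not they passed, and up to 3 passing genes were named from each other list. Members that varied most within groups were named after their values were seen. Alternatives changed the test, filter, scaling, arrays, or block. The members and lists were chosen with earlier results of these data known, and the epithelial list and 4 of the alternatives after seeing the values. The main fit did not pair arrays by replicate number.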

Additional observations from a re-analysis of the deposited data

Results flagged for a closer look

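Slc7a8 was singled out because its differences from 30°C were called in opposite directions in different cold groups and the difference between those groups was called too. The adjusted p-values below were therefore under 0.05 by selection. The call of the –10°C/–20°C increase over 30°C was kept under 15 of 24 alternatives. The difference from 30°C was -1.56 (SE 0.26) with 4°C and 0.92 (SE 0.26) with –10°C/–20°C, which differ by 2.48 (SE 0.26, adjusted p = 0.00061, limma), and -1.59 (SE 0.26) with –10°C, which differs from –10°C/–20°C by 2.51 (SE 0.26, adjusted p = 0.00053). The 30°C arrays cancel in these 2 differences.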

How the results depend on the processing

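No called difference changed sign under any alternative. With the 45 calls of the 6 comparisons as a base, 45 were kept with a trend and robust fit, with a filter on dim genes, with the mean of a gene's rows, and with the epithelial covariate, 40 with repeated quantile normalization or centring, 29 with only the arrays of the 2 groups, and 6 with the methods' t-test. That test called 0 members at 4°C, 0 at –10°C, and 5 at –10°C/–20°C against the 30°C arrays, 0 with –10°C/–20°C against the –10°C arrays, and 1 against the 4°C arrays. With only the arrays of the 2 groups, 1 member was called with 4°C and 5 with –10°C against the 30°C arrays, and 6 with –10°C/–20°C against the 4°C arrays. With the name form as a block, 1 was called with –10°C and 9 with –10°C/–20°C against the 30°C arrays. Within the 8 arrays of the second form, 0, 1, and 5 were called with 4°C, then –10°C, and then –10°C/–20°C against the 30°C arrays, 0 with –10°C/–20°C against the 4°C arrays, and 5 by the F-test, and within the 4 of the first form 0. Without the array of highest epithelial level in each group, the counts were 1, 1, and 9 against the 30°C arrays, 1 and 3 with –10°C/–20°C against –10°C and 4°C arrays, and 6 by the F-test, and 14 of the 45 calls were kept. These settings leave fewer arrays. Leaving out 1 array gave 0 to 4 calls at 4°C, 4 to 9 at –10°C, and 9 to 17 at –10°C/–20°C against the 30°C arrays, 0 to 0 with –10°C against the 4°C arrays, 5 to 9 and 6 to 11 with –10°C/–20°C against –10°C and 4°C arrays, and 11 to 18 by the F-test. With 4°C the count was 2 without 30°C array 1, 1 without 30°C array 2 or 4°C array 3, and 0 without 4°C array 1. With –10°C it was 4 without 30°C array 2 or 3 or –10°C array 1 or 3. With –10°C/–20°C it was 9 without –10°C/–20°C array 2, and against –10°C and 4°C arrays it was 5 without –10°C array 1 and 6 without 4°C array 2.

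The labels do not say whether replicate numbers pair the arrays, and the main fit did not pair them. Over 18 pairs of same-numbered arrays the correlation of deviations ran from -0.386 to 0.54 (median 0.2), with 11 over 0.1. By number, it ran from 0.171 to 0.453 for arrays 1, -0.025 to 0.54 for arrays 2, and -0.386 to 0.41 for arrays 3. Pairs of different numbers ran from -0.734 to 0.597. With the replicate block, 5, 8, and 16 members were called with 4°C, then –10°C, and then –10°C/–20°C against the 30°C arrays, 0 with –10°C against the 4°C arrays, 9 and 13 with –10°C/–20°C against –10°C and 4°C arrays, and 18 by the F-test, and 43 of the 45 calls were kept.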

Other observations

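Of the 60 members, 12 pairs lie near each other in the genome by the order of protein-coding genes in RefSeq. Slc6a13 and Slc6a12, adjacent on chromosome 6, were 2.71-fold lower and at least 1.25-fold higher with –10°C/–20°C than at 30°C. For Slc38a2 and Slc38a1, adjacent on chromosome 15, the log2 differences were 1.54 (SE 0.23) and -0.53 (SE 0.17, adjusted p = 0.055, limma), and for Slc43a1 and Slc43a3, with 1 gene between them on chromosome 2, 1.58 (SE 0.17) and -0.03 (SE 0.09). For Slc36a2 and Slc36a1, adjacent on chromosome 11, they were 1.45 (SE 0.17) and -0.29 (adjusted p = 0.14). Slc6a20a and Slc6a20b, adjacent on chromosome 9, were both highest on the same 4 arrays, although Slc6a20b was not above background. These pairs were picked after their values were seen, and whether neighbours differ from each other was not tested.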
